A study of Arabidopsis thaliana with 12 samples.

Results

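Transcripts of 7 genes chosen as a readout of cell division were compared between prors2 and wild-type (WT) Arabidopsis thaliana. These were the kinesin genes AT4G14330, AT3G44050, AT3G20150 and AT2G37420, the histone H3 genes AT1G09200 and AT1G13370, and the F-box gene FBL17 (AT3G54650). They were taken from the 691 genes that have at least 1 array probe of their own, and each of the 7 was read by 1 such probe. A further probe that the platform table ties to AT2G37420 together with other genes was left out. The arrays held total RNA of 6 WT and 6 prors2 samples, both of ecotype Columbia 0, and the labels describe prors2 as a mutant that lacks prolyl tRNA synthetase. The sources used here do not give the tissue, age, growth or kind of mutant allele. Nor do they say whether the 6 samples of a group came from separate plants, so p-values describe variation among these samples only, and some of it may be technical. In whole-plant or tissue RNA, fewer dividing cells and less transcript per cell cannot be told apart.

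Kinesins are motor proteins that move along microtubules. Plant cells use many of them in division, in the spindle and in the phragmoplast, the microtubule array that builds the new cell wall between daughter cells. Histone H3 packs DNA into nucleosomes, and the replicative form H3.1 is made mainly while DNA is copied. FBL17 is the substrate-binding subunit of a ubiquitin ligase that marks inhibitors of cyclin-dependent kinases for destruction and so lets cells enter DNA replication. Transcripts of kinesins used in division, of H3.1 and of FBL17 are commonly read as signs of dividing cells.

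The deposited values are relative intensities between 0 and 100, and the arrays of the groups were not on the same level. The median feature stood between 0.135 and 0.169 on the WT arrays and between 0.279 and 0.305 on the prors2 arrays, so a feature near the median whose rank did not move has a higher deposited value in prors2. The array sums differed less, at 2942 to 3167 in WT and 3107 to 3278 in prors2. Between 368 and 396 features per WT array and between 262 and 316 per prors2 array were at 0. Log2 differences below (prors2 minus WT) come from a limma fit after quantile normalization, which gives all arrays the same distribution and treats 0 as missing, unless another scaling is named. The fit covered 3024 of 3439 features, all 7 genes among them, with p-values adjusted over all 3024 and a threshold of 0.05. It called 47.2% of them, 24.8% higher and 22.4% lower in prors2, at a median difference of 0.07. Of the 7 genes 1 was called higher and 1 lower.

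**Figure D1:**
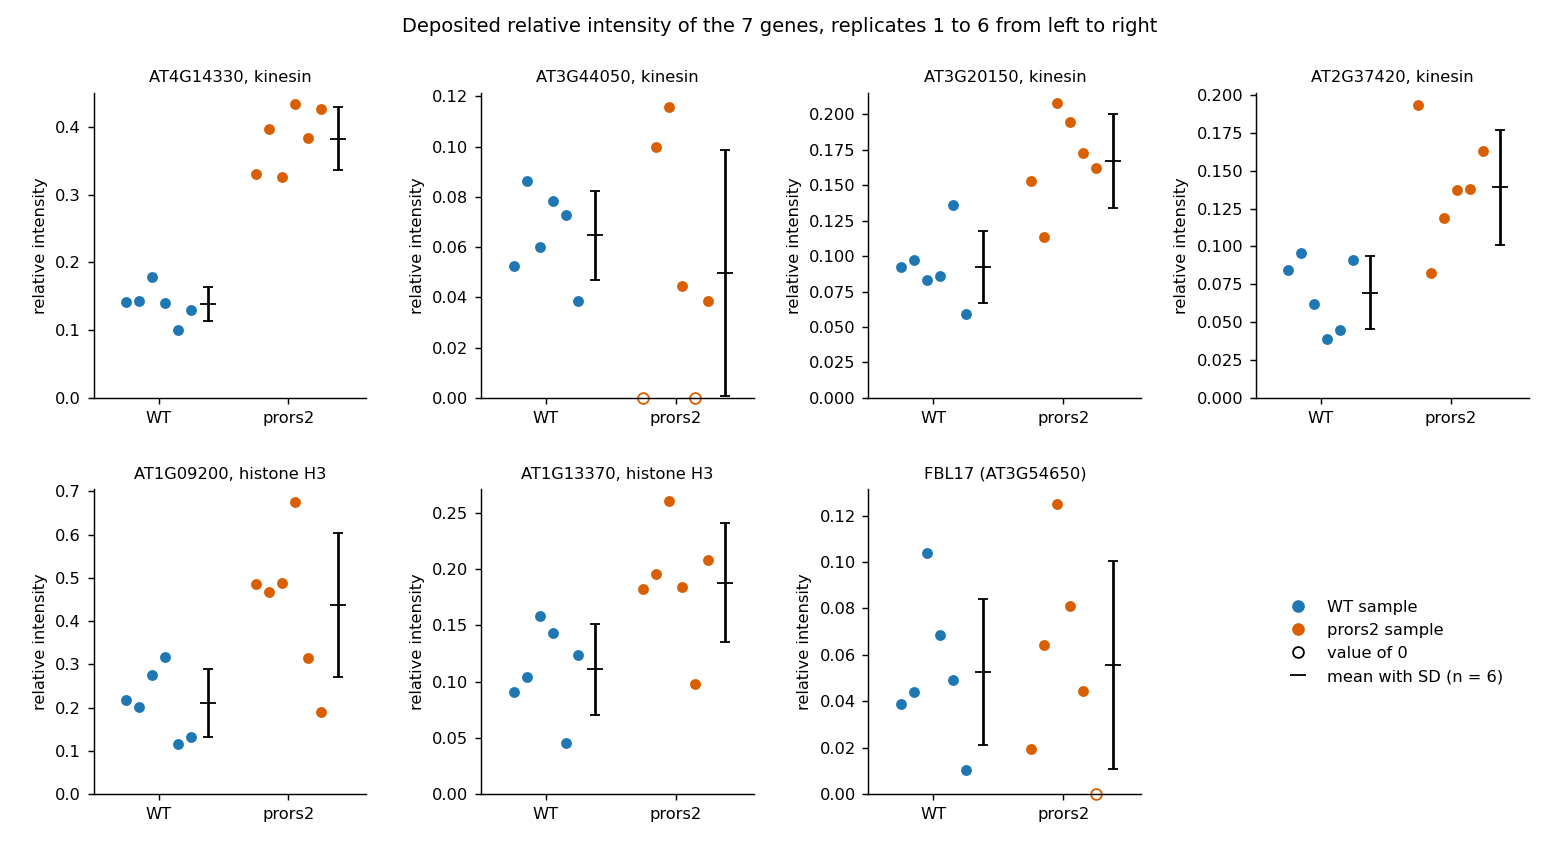
Deposited relative intensity (vertical axis, linear, from 0, with a separate scale per gene) of each gene in the 6 WT and 6 prors2 samples, with open circles for values of 0 and bars for the mean and SD (n = 6). AT4G14330 alone has all prors2 samples above all WT samples, and AT3G44050 and FBL17 are at 0 in 2 and 1 of the prors2 samples.

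AT4G14330 rose in prors2. It encodes PAKRP2, a kinesin of the phragmoplast. Its relative intensity ran from 0.0996 over a median of 0.141 to 0.178 in WT and from 0.326 over 0.391 to 0.434 in prors2. All 6 prors2 samples lay above the highest WT sample, which was true of 34.8% of the 3368 features with any value above 0. The means were 0.139 ± 0.025 (SD, n = 6) and 0.383 ± 0.046, a ratio of 2.76 on the deposited scale. After normalization the log2 difference was 0.66 (SE 0.12, 95% interval 0.40 to 0.92, limma adjusted p = 6.56e-04), and it ranked 709 of 3024 from the largest rise. AT4G14330 was called higher under each of the 4 array scalings, at 0.65 after median centring, 1.40 at equal sums and 1.47 on the deposited values. Of all tested features 19.8%, 55.0% and 57.8% were called higher there, at median differences of -0.06, 0.69 and 0.76. It was also called in each of the 12 fits that left out 1 sample, at 0.60 to 0.72. Within replicates 1 and 2, 3 and 4, and 5 and 6 the difference was 0.61, 0.50 and 0.87. Its spread between samples was small, with a residual SD of 0.18 on the log2 scale against a median of 0.34 over all tested features.

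A second view that depends on no scaling ranks every feature within its array, as a percentile of the 3439 features with zeros placed at 0. It was added after the data had been seen. Any feature above 0 ranks above all zeros. The prors2 arrays had fewer zeros, so the lowest rank open to a feature above 0 was lower there. A value of 0 drops from that rank straight to 0. Falls in rank of dim genes were not corrected for either. AT4G14330 lay between percentiles 41.0 and 51.8 in WT and between 53.2 and 63.8 in prors2. The groups did not overlap, and the mean went from 46.5 ± 3.7 to 60.0 ± 4.3 (SD, n = 6; two-sided exact permutation p = 0.00216, the lowest possible with 6 samples per group; adjusted over all features, 0.00764). By this rank 13.7% of all features stood fully above WT, and 22.9% were higher in prors2 in 6 of 6 numbered pairs. The exact test on ranks, which ignores the pairs, called 21.8% of features higher and 22.0% lower.

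**Figure D2:**
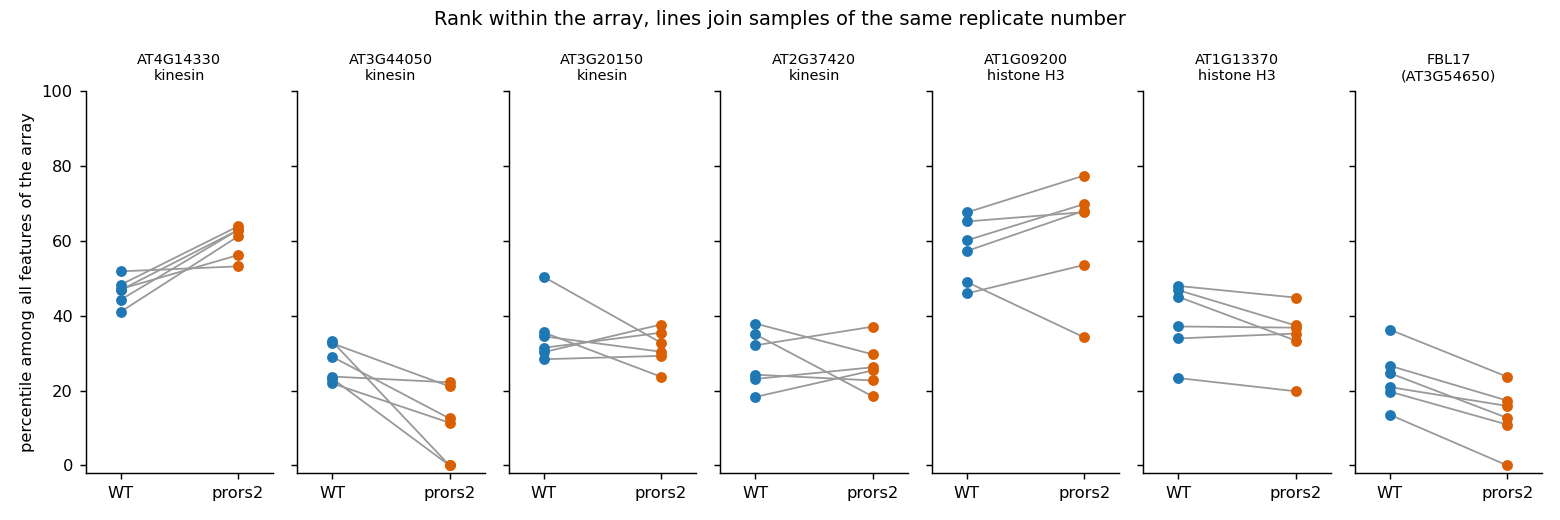
Percentile of each gene among all 3439 features of its array (vertical axis, percent) in WT and prors2, with a line joining the samples of the same replicate number and zeros placed at 0. All 6 lines of AT4G14330 rise, all 6 of AT3G44050 and of FBL17 fall, and those of the other genes run both ways.

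AT3G44050 fell by 0.95 on the log2 scale (SE 0.34, 95% interval -1.72 to -0.19, limma adjusted p = 0.0435). The value uses the 4 prors2 samples in which it was above 0. This locus is another kinesin gene. Its relative intensity ran from 0.0386 over a median of 0.0665 to 0.0862 in WT. In prors2 it was 0 in replicates 1 and 5, 0.0386 in replicate 6, 0.0444 in replicate 4, 0.100 in replicate 2 and 0.116 in replicate 3. So 2 prors2 samples lay above every WT sample and 2 below, and the means were 0.0648 ± 0.018 and 0.0498 ± 0.049 (SD, n = 6). No WT sample at 0 and at least 2 prors2 samples at 0, as here, was seen in 1.1% of the 3368 features with any value above 0. That share covers features of every brightness, and it was not taken among equally dim ones. The percentile of AT3G44050 went from 27.3 ± 5.0 to 11.2 ± 9.7 (exact permutation p = 0.00433, adjusted over all features 0.0133, in a test that ignores the pairs). It was lower in prors2 in 6 of 6 numbered pairs, as it was for 24.1% of features.

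The limma call for AT3G44050 was close to the threshold and depended on the processing. It was lost after median centring, at -0.75 (limma adjusted p = 0.104), and the sign turned at equal sums and without scaling, at 0.0081 and 0.093. Blocking on the replicate number also ended it, at -0.93 (limma adjusted p = 0.0649, over the 4 complete pairs), as did leaving out any of WT replicates 1 to 5, at -0.87 to -1.01 (limma adjusted p = 0.0502 to 0.0799). Within replicates 1 and 2, 3 and 4, and 5 and 6 the difference was -0.37, -0.84 and -1.74, where the first and the last rest on 1 prors2 sample above 0. An offset before log2, which keeps the zeros, gave -1.27 (limma adjusted p = 0.00587), where 24.0% of all features were called lower. The exact test on values divided by the array median called AT3G44050 lower (adjusted over all features, 0.0430) and AT4G14330 higher (0.00691), and called 29.0% of features lower and 16.9% higher.

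The other kinesin genes, AT3G20150 and AT2G37420, were brighter on the prors2 arrays, as most features were, and did not pass after normalization. AT2G37420 belongs to the family of tetrameric kinesins that slide microtubules in the spindle and phragmoplast. AT3G20150 ran from 0.0592 over 0.0893 to 0.136 in WT and from 0.114 over 0.167 to 0.208 in prors2. For AT2G37420 the values were 0.0391, 0.0730 and 0.0957 in WT and 0.0827, 0.138 and 0.194 in prors2. In both genes 5 prors2 samples lay above the highest WT sample and 1 did not. The deposited means differed by a ratio of 1.81 for AT3G20150 (two-sided exact permutation p = 0.00433, adjusted over all features 0.00955) and 2.0 for AT2G37420 (exact permutation p = 0.00866, adjusted 0.0172). This test called 51.8% of the 3368 features higher and 7.96% lower.

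After normalization AT3G20150 differed by -0.08 (SE 0.20, 95% interval -0.51 to 0.35, limma adjusted p = 0.787) and AT2G37420 by 0.06 (SE 0.28, 95% interval -0.55 to 0.67, limma adjusted p = 0.885). Their percentiles went from 35.0 ± 7.9 to 31.5 ± 4.9 and from 28.4 ± 7.7 to 26.6 ± 6.4 (SD, n = 6), and each was higher in prors2 in 3 of 6 numbered pairs. Both had a difference below 0 within replicates 1 and 2, at -0.38 and -0.39, and above 0 within replicates 3 and 4, at 0.40 and 0.49. Within replicates 5 and 6 AT3G20150 lay at -0.25 and AT2G37420 at 0.08. Of the 4 kinesins 1 was thus called higher, 1 lower and 2 did not pass, beside the 24.8% and 22.4% of all features called higher and lower. The log2 ratio of any kinesin to any other within an array overlapped between the groups, over the arrays where both were above 0. Ratios with AT3G44050 rest on 10 arrays, without the prors2 arrays where it was at 0. The log2 ratio of AT4G14330 to AT3G44050 changed by 1.43 in prors2, and those of AT3G44050 to AT3G20150 and to AT2G37420 by -0.79 and -0.80.

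The interval of AT2G37420 holds a rise like the 0.66 of AT4G14330. That of AT3G20150 does not. Its limits moved with the processing, to -0.40 and 0.49 after median centring and to -0.27 and 0.41 without WT replicate 5. The difference of AT4G14330, at 0.65 and 0.60 in those fits, lay above them too. The log2 ratio of AT4G14330 to AT3G20150 within an array, which no scaling factor per array can alter, was higher by 0.60 in prors2, and that of AT4G14330 to AT2G37420 by 0.44. In both cases the groups overlapped.

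**Figure D3:**
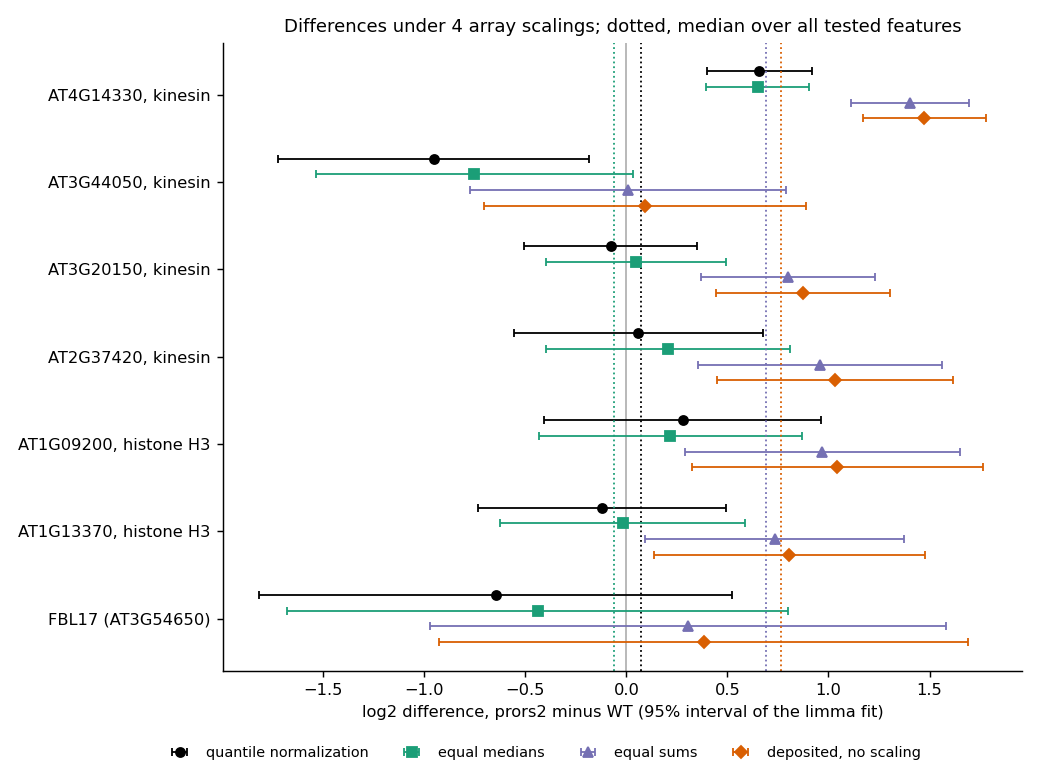
Log2 difference (horizontal axis, prors2 minus WT, with the 95% interval of the limma fit) of each gene under 4 array scalings, with dotted lines for the median over all tested features. The whole interval of AT4G14330 lies right of the dotted line under every scaling, the points of AT3G44050 and FBL17 lie left of it, and the intervals of the other 4 genes cross it. Equal medians, equal sums and no scaling differ only by a factor per array, so places against the dotted line are nearly the same there.

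The histone H3 genes were brighter on the prors2 arrays, and neither passed after normalization. AT1G09200 is an H3.1 gene by its reference synonym, while the form of H3 that AT1G13370 encodes was not established here. AT1G09200 ran from 0.116 over 0.209 to 0.317 in WT and from 0.190 over 0.477 to 0.677 in prors2. In prors2 4 samples lay above the highest WT sample. Its deposited mean went from 0.210 ± 0.079 to 0.437 ± 0.17 (SD, n = 6; exact permutation p = 0.0195, adjusted over all features 0.0341). The normalized difference was 0.28 (SE 0.31, 95% interval -0.41 to 0.96, limma adjusted p = 0.506). AT1G13370 ran from 0.0456 over 0.114 to 0.159 in WT and from 0.0979 over 0.190 to 0.260 in prors2, with 5 prors2 samples above the highest WT sample. Its deposited mean went from 0.111 ± 0.040 to 0.188 ± 0.053 (exact permutation p = 0.0216, adjusted 0.0373), and its normalized difference was -0.12 (SE 0.28, 95% interval -0.74 to 0.49, limma adjusted p = 0.764). By rank the H3 genes leaned opposite ways. AT1G09200 went from percentile 57.5 ± 8.6 to 61.8 ± 15.6 (SD, n = 6) and was higher in prors2 in 5 of 6 numbered pairs. AT1G13370 went from 39.0 ± 9.5 to 34.5 ± 8.2 and was higher in 1 of 6. Neither passed the exact test on ranks (adjusted over all features, 0.705 and 0.545).

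The spread of both H3 genes followed the replicate numbers. In both genotypes AT1G09200 was highest in replicate 4, then 3, 1 and 2, and lowest in replicates 5 and 6. Its normalized difference was 0.54 within replicates 1 and 2, 0.38 within 3 and 4 and -0.08 within 5 and 6. AT1G13370 was highest in replicate 3 and lowest in replicate 5 in both genotypes. With replicate numbers as a block the residual SD went from 0.58 to 0.32 for AT1G09200 and from 0.52 to 0.17 for AT1G13370, on the log2 scale, while the median over all features went from 0.34 to 0.26. Neither passed with the block, at 0.28 (95% interval -0.13 to 0.68, limma adjusted p = 0.210) and -0.12 (95% interval -0.37 to 0.13, limma adjusted p = 0.371). The interval of AT1G13370 was then the narrowest of the 7 genes. With sets of neighbouring replicate numbers as the block the residual SD was 0.30 for AT1G09200, 0.48 for AT1G13370 and 0.28 in the median over all features. So neighbouring numbers were alike for AT1G09200, and less so for AT1G13370. Whether they share material is not given, while the fit without a block and the exact tests treat the samples as independent.

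H3 genes are alike in sequence, so their probes may also read relatives. AT5G65360, which carries the H3.1 synonym in the reference as AT1G09200 does, had a probe of its own. It was at 0 in 4 of 6 WT and 5 of 6 prors2 samples, its highest value was 0.0111, and it had too few values above 0 for the limma fit. The exact test on its deposited values gave p = 0.727 (adjusted over all features 0.783). It was the only gene besides the members that the lists of histone, kinesin and microtubule, cell cycle, DNA replication, and F-box genes found among single-gene probes. Those lists searched symbols and synonyms, and of the 7 genes they found only AT1G09200, so they may miss others.

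FBL17 had the lowest mean of the 7 in WT and did not pass in the fit without a block. Its relative intensity ran from 0.0106 over 0.0467 to 0.104 in WT and from 0 over 0.0543 to 0.125 in prors2. The groups overlapped nearly fully, with means of 0.0526 ± 0.031 and 0.0557 ± 0.045 (SD, n = 6; exact permutation p = 0.887 on the deposited values). The normalized difference was -0.65 (SE 0.53, 95% interval -1.82 to 0.52, limma adjusted p = 0.350), from the 5 prors2 samples with a value. No WT value at 0 and at least 1 in prors2, as here, was seen in 3.47% of features, a share over every brightness. The sign of the FBL17 difference turned without scaling and at equal sums, at 0.38 and 0.30. The residual SD of 0.96 on the log2 scale was the largest of the 7 genes.

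FBL17 also followed the replicate numbers. Replicate 3 was the highest and replicate 4 the next in both genotypes, while replicate 6 was the lowest in both, at 0.0106 in WT and 0 in prors2, and replicate 1 the next lowest. With replicate numbers as a block, which drops replicate 6 because its prors2 value is 0, FBL17 was called lower, at -0.99 (SE 0.23, 95% interval -1.57 to -0.41, limma adjusted p = 0.0146), with a residual SD of 0.42. The blocked fit called 25.1% of all features lower and 28.0% higher. By rank FBL17 went from percentile 23.6 ± 7.7 to 13.4 ± 7.9 (SD, n = 6) and was lower in 6 of 6 numbered pairs, as were 24.1% of features. The test on ranks, which ignores the pairs, gave an exact permutation p of 0.0411 (adjusted over all features 0.0843). Within replicates 1 and 2, 3 and 4, and 5 and 6 the normalized difference was -1.16, -0.65 and -0.32. The last sets 1 prors2 sample against both WT samples, since prors2 replicate 6 was at 0, so the 3 values are not on the same footing.

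**Figure D4:**
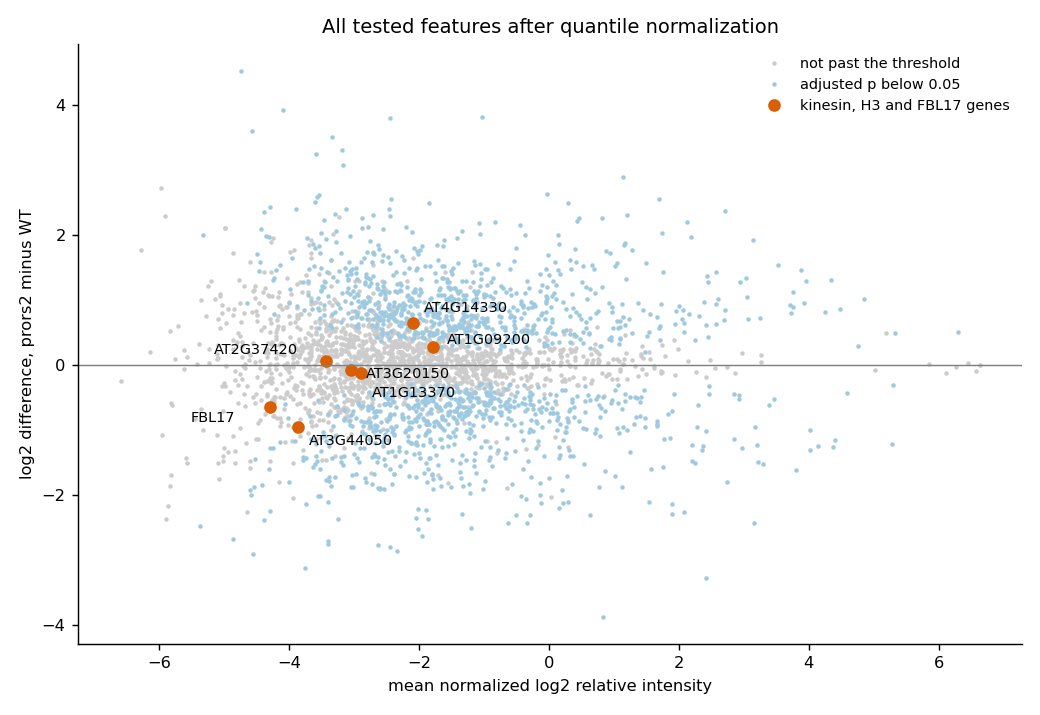
Log2 difference (vertical axis, prors2 minus WT) against mean normalized log2 relative intensity (horizontal axis) of the 3024 tested features, with called features in blue and the 7 genes in orange. The genes lie in the dim and middle part of the range, between -0.95 and 0.66 on the vertical axis.

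The number of genes called depended on the scaling as it did over the whole array. Without scaling 5 of 7 were called higher and 0 lower, where 57.8% and 8.9% of all features were. At equal sums it was again 5 and 0, beside 55.0% and 9.85%. The 5 were AT4G14330, AT3G20150, AT2G37420, AT1G09200 and AT1G13370. After median centring 1 was higher and 0 lower, where 19.8% and 29.1% of all features were. The median difference of the 7 genes was -0.08 after quantile normalization, 0.05 after median centring, 0.80 at equal sums and 0.87 on the deposited values, beside 0.07, -0.06, 0.69 and 0.76 over all tested features. AT4G14330 lay above the median of all features, and AT3G44050 and FBL17 below it, under all 4 scalings. No scaling, equal sums and median centring differ only by a factor per array. They place a gene among all differences nearly alike and do not count as separate results. The difference of AT4G14330 stood at percentile 78.9 of all differences under each of them and at 76.6 after quantile normalization.

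Deviations from the group means were also compared between the genes. Of the 21 pairs among them, these deviations correlated between -0.69 (AT2G37420 with FBL17, over 11 samples) and 0.42 (AT1G09200 with FBL17, over 11 samples). The H3 genes correlated at 0.32 with each other over 12 samples. These are descriptions over few arrays that share replicate structure.

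Each gene was also set against the single-gene features with a value on all 12 arrays, by the Pearson correlation of normalized log2 values. AT1G09200 was most like AT2G30570 (PSBW, a photosystem II subunit), at r = 0.88 and Spearman's rho = 0.94 over 12 samples, then AT4G29750 at r = 0.86 and rho = 0.89. AT1G13370 was most like AT1G34270 at r = 0.89 and AT3G51500 at r = 0.87, but with rho of 0.62 and 0.66. For these 4 features the likeness was as high after group means were removed, at 0.88 to 0.90. AT4G14330 was most like AT1G21660 and AT2G15680 (CML30, a calmodulin-like protein), at r = 0.91 each (rho 0.87 and 0.82), but at 0.46 and 0.42 with group means removed. AT3G44050 was most like AT5G47030 and AT5G27090 (AGL54) at r = 0.87 each over 10 samples (rho 0.62 and 0.75), with 0.76 and 0.81 after group means were removed. FBL17 was most like AT2G34050 and AT2G30880 (SWAP70) at r = 0.84 and 0.82 over 11 samples (rho 0.94 and 0.74), with 0.82 and 0.81 after removal. AT3G20150 was most like AT3G28460 and AT3G56250 at r = 0.68 and 0.67 (rho 0.60 and 0.64), with 0.70 and 0.69 after removal. AT2G37420 was most like AT1G01080 and AT5G22620 at r = 0.68 each (rho 0.71 and 0.64), with 0.83 and 0.81 after removal. All these values are the highest of 509 or 510 candidates and describe these arrays only.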

How the data were processed

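Total RNA of 6 WT and 6 prors2 samples was measured on 1-channel arrays. The deposited table holds relative intensity values on a linear scale for 3439 features, with 0 value columns of other samples and no identical columns. The sources used here do not give the background correction, scaling, software or array type. Precision is limited by the number of arrays.

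The platform's gene table gave 692 probes with 1 gene, of which 690 matched the TAIR10.1 reference table by gene ID. It gave several genes for 870 probes, and 1877 features stay unnamed. Log2 values with 0 as missing were quantile-normalized and fitted with limma 3.58.1 in R 4.3.3 (lmFit, eBayes, group as the one term) for features above 0 in at least 4 of 6 samples of each group. P-values were adjusted after Benjamini and Hochberg over all features tested. Exact permutation tests over samples (924 arrangements, two-sided) were run on every feature with any value above 0. The fits were tested on simulated data with independent noise in each sample. No effect of replicate number was simulated, so that test does not cover the same-number correlations given below.

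The 7 genes, the lists and the alternatives were chosen with earlier results of these data known. The lists were to search descriptions too, which the reference table lacks. Named are the 7 genes, list genes past the threshold, and for each gene the 2 most like single-gene features. AT5G65360, outside that rule, was named after its values were seen, as a list gene with too few values above 0 for the limma fit. Over 2654 complete features, deviations of same-numbered WT and prors2 samples correlated at 0.212 to 0.399, and each of the 12 samples had its highest correlation with the sample of its own number. The numbers were therefore taken to pair the samples in the replicate block and in counts of numbered pairs. The labels do not state such a pairing, and the main fit and the exact tests did not use it.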

Additional observations from a re-analysis of the deposited data

How the results depend on the processing

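AT4G14330 was called higher under every alternative run. Of the 3024 features tested, 1747 were higher and 269 lower on the deposited values and 1664 and 298 at equal sums, beside 751 and 676 after quantile normalization; leaving out 1 sample gave 702 to 737 and 627 to 665. Members called higher were 5 without scaling and at equal sums and 1 under the other alternatives. Members called lower were 0 rather than 1 without scaling, at equal sums, after median centring, with sets of neighbouring replicate numbers as a block, with trend and robust fits and in the per-feature exact permutation test. They were 0 to 1 when 1 sample was left out. With complete features only they were also 0, but AT3G44050 and FBL17 were not fitted there because of their zeros. With the replicate block FBL17 took the place of AT3G44050 as the 1 called lower, and the block changed no other member's call. The per-array exact permutation test called 5 members higher and 0 lower on the deposited values, and 1 higher (AT4G14330) and 1 lower (AT3G44050) after division by the array median. Signs turned for AT3G44050 without scaling (0.093) and at equal sums (0.0081), for AT3G20150 (0.87, 0.80, and 0.047 after median centring and 0.016 with array weights), for AT1G13370 (0.81 and 0.73) and for FBL17 (0.38 and 0.30). AT2G37420 turned with an offset (-0.083), with zeros at the lowest value above 0 (-0.11) and by rank (-1.87 percentile points). Leaving out 1 sample moved AT3G20150 between -0.15 and 0.071, AT2G37420 between -0.12 and 0.20, AT1G13370 between -0.31 and 0.063, FBL17 between -0.99 and -0.29 and AT1G09200 between 0.12 and 0.53. AT3G44050 could not be fitted without prors2 replicate 2, 3, 4 or 6, since fewer than 4 values above 0 remained. Zeros at the lowest value above 0 gave AT3G44050 -4.25 (limma adjusted p = 0.0452), a size set by that floor. Apart from scaling and the zeros, the cause of these moves was not tested.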

Other observations

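In 14 groups of 6 deposited values (7 genes in WT and in prors2), no sample stood far from the others by Dixon's criterion. The largest gap to the nearest sample was 0.523 of the group's range, below the critical value for 6 samples.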
